A study of Rattus norvegicus with 48 samples.

Results

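Liver transcripts of male Sprague-Dawley rats collected 24 h after a single oral dose of 18 mg/kg RDX were set against those of rats of the same dose arm collected at 0 h. The 3 arrays titled liver, 18 mg RDX, 24 h formed one group and the 3 titled 0 h the other, so that 6 of the study's 48 arrays entered the comparison. RDX is a nitramine explosive that blocks the GABA type A receptor in the brain. It was given as the pure compound in a gel capsule, at a dose chosen to stay below the seizure threshold, to pair-housed animals with free access to food. The study also had a 3 mg/kg arm, 4 h and 48 h groups, and brain cortex from both arms. The labels name no capsule-only group at any time, so the 0 h arrays of the same arm were the control. They give neither the animals' age nor the clock hour of collection. Nothing in them says that arrays of a group are separate animals, so each p-value reflects array-to-array spread that may be technical.

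Most hepatocytes of an adult liver are out of the cell cycle, and transcripts of mitotic proteins come from the minority of cells of any type that are about to divide. These genes are switched on together late in the cell cycle, when cyclin B and its kinase drive entry into mitosis, and their proteins are destroyed as the cell divides. The liver also has a circadian clock, in which the REV-ERB repressors, made by Nr1d1 and Nr1d2, and the period proteins turn over daily. Feeding and fasting shift it between making fat, under the factor SREBP-1c, and burning fat, under PPAR alpha.

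No probe set passed the threshold of an adjusted p under 0.05 in the comparison of 24 h with 0 h (limma, 31042 probe sets, 0% called), and the smallest adjusted p was 0.317. At an unadjusted p under 0.05 stood 753 probe sets (2.43%), of which 473 (1.52%) were higher and 280 (0.902%) lower at 24 h. All differences below are therefore values that did not pass, given on the log2 scale of the deposited RMA values with the model's standard error (SE, n = 3 per group). A gene is represented by its brightest probe set in liver. Over 14217 genes the median log2 difference was 0.0093. All 3 arrays at 24 h lay above all 3 at 0 h in 5.77% of genes and below them in 4.2%. With 3 arrays a group, single values often rested on 1 array: 43 of the 99 genes followed here moved by over 1.5 times when some one of the 6 arrays was left out, 22 of them without 24 h replicate 2.

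The arrays were liver by their markers. Alb, serum albumin, lay between 14.26 and 14.39 in the 6 arrays, and the mean of 10 hepatocyte markers between 12.89 and 13.25. One array stood apart from its group. In 24 h replicate 2, 6.46% of probe sets differed by more than 1 log2 unit from the mean of the other 2 arrays, against 1.99% and 1.9% in replicates 1 and 3. In the 0 h group replicate 2 was the most distant, at 3.33%. The actin 3' minus 5' gap, which grows as RNA degrades, was 3.35, 3.77 and 2.90 at 0 h and 3.17, 2.82 and 3.03 at 24 h, so the groups overlapped. Among the other liver arrays, 3 mg/kg 0 h replicate 2 and 18 mg/kg 4 h replicate 1 had compressed values, with SDs over probe sets of 1.49 and 1.38 against 1.94 to 2.06 in the 6 arrays compared.

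Genes of mitosis were lower at 24 h as a group. All 35 measured members of the mitosis list had values below 0, with a median log2 difference of -1.06, where 48.3% of all genes lay below 0. In 29 members every 24 h array lay below every 0 h array, against 4.2% of all genes, and 28 members were lower at an unadjusted p under 0.05, against 1.05%. No member passed over all probe sets. The list was chosen with earlier results of these data known, so these counts describe the list and are not an independent test. The list mean, the average log2 value of the 35 genes, was 7.29, 7.70 and 7.25 in the 0 h arrays and 6.23, 6.81 and 6.24 in the 24 h arrays. The groups did not overlap, and replicate 2 was the highest array of each. In bulk liver, fewer dividing cells and less RNA per dividing cell cannot be told apart.

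The kinase and cyclins that start mitosis were among the lower genes. Ccnb1, cyclin B1, read 7.42, 8.24 and 7.49 at 0 h and 6.05, 6.72 and 6.10 at 24 h, a 2.69-fold lower level (log2 -1.43 ± 0.42 SE). The second probe set of Ccnb1 gave -1.73 ± 0.30 and had the smallest adjusted p of all, 0.317. Cdk1, the kinase that cyclin B activates, read 7.89, 8.04 and 8.15 at 0 h and 6.03, 7.33 and 6.56 at 24 h (log2 -1.39 ± 0.38). Each 24 h array lay below the 0 h range for both genes, and 24 h replicate 2 was the closest to it. Ccnb2, the second B-type cyclin, differed by -1.33 ± 0.41, and Cdkn3, a phosphatase that acts on Cdk1, by -1.64 ± 0.44. These 2 genes, like Cdc20, Aurka and Plk1 below, were chosen after their values were seen.

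Promoters of 3 of these genes are shown because the mitosis genes lay lower together and because 2 short motifs are known from the promoters of late cell cycle genes. The motifs are the CCAAT box, bound by NF-Y, and the CHR element, bound by the DREAM and MMB complexes. RefSeq sequences (build GRCr8) of the 250 bases before the start were found for 31 of the 35 members. Capitals mark CCAAT or TTTGAA, the latter being the CHR letters searched, or their reverse complements. The cyclin B1 promoter (chr2:33655226-33655475, minus strand) held 2 CCAAT matches and no TTTGAA. Those of Cdk1 (chr20:19265043-19265292, plus strand) and Birc5, survivin (chr10:103571896-103572145, plus strand), held both.
Ccnb1: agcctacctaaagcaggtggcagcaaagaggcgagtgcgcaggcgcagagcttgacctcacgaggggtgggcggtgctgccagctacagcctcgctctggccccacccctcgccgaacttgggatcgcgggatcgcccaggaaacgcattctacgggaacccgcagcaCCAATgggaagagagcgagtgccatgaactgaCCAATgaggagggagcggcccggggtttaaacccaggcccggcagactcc
Cdk1: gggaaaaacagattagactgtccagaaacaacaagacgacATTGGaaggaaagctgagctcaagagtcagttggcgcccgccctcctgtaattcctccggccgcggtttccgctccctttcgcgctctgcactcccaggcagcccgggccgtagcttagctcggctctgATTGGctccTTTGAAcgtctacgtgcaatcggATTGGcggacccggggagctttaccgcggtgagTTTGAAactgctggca
Birc5: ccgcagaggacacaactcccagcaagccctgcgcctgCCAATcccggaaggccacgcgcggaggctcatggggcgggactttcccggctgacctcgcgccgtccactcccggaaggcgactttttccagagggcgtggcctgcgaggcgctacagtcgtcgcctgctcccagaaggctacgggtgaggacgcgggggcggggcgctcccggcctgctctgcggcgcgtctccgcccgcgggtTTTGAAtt
CCAAT was found on either strand in 26 of the 31 mitosis promoters (83.9%) and in 34.3% of 27457 promoters of the same length. TTTGAA was found in 16 of 31 (51.6%) and in 16% of all. Both were found in 51.6% of the mitosis promoters and in 5.76% of all, and matches to the 2 motifs overlapped in 2 mitosis promoters. The matches describe letters in these windows, and binding was not measured.

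Regulators of chromosome separation followed the cyclins. Ube2c, the ubiquitin-conjugating enzyme of the anaphase-promoting complex, read 8.47, 8.56 and 8.49 at 0 h and 7.02, 7.72 and 7.04 at 24 h (log2 -1.25 ± 0.28, adjusted p = 0.934). Pttg1, the securin that holds back chromosome separation, read 7.88, 8.60 and 8.04 at 0 h and 6.91, 6.68 and 7.06 at 24 h (log2 -1.29 ± 0.30). Neither gene's groups overlapped, and for Ube2c replicate 2 was again the highest at 24 h. Cdc20, which activates the same complex, differed by -1.50 ± 0.50, and its dimmer probe sets gave -0.87, -0.46, 0.02 and -0.21. The kinases Aurka and Plk1, which build the spindle, differed by -1.02 ± 0.28 and -1.11 ± 0.35.

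Several genes taken for their small p in the lower direction act at the central spindle and in cytokinesis. Racgap1, a centralspindlin subunit, read 7.58, 8.30 and 7.47 at 0 h and 5.84, 7.07 and 6.07 at 24 h, 2.75-fold lower (log2 -1.46 ± 0.30, adjusted p = 0.579). Birc5, a subunit of the chromosomal passenger complex, read 6.89, 7.32 and 7.29 at 0 h and 6.07, 6.19 and 6.17 at 24 h, 2.03-fold lower (log2 -1.02 ± 0.21, adjusted p = 0.579). The 24 h arrays lay close together for Birc5 and spread widely for Racgap1. A dim second probe set of Racgap1 gave -0.30, with overlapping groups. Ect2, the exchange factor that starts the contractile ring, differed by -1.33 ± 0.32, and Prc1, which bundles spindle microtubules, by -1.16 ± 0.30. Knstrn, a kinetochore protein outside the list, read 7.72, 8.73 and 7.66 at 0 h and 6.56, 6.93 and 6.19 at 24 h (log2 -1.48 ± 0.35, adjusted p = 0.934). A dim second probe set of Knstrn gave -0.02.

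Mki67, Top2a and Kif22, also taken for their small p, act on chromosomes. Mki67, the proliferation marker Ki-67, read 8.50, 8.55 and 8.05 at 0 h and 6.54, 7.57 and 6.79 at 24 h (log2 -1.40 ± 0.34). Top2a, the topoisomerase that untangles sister chromatids, read 8.17, 8.70 and 7.63 at 0 h and 6.92, 7.26 and 6.76 at 24 h (log2 -1.18 ± 0.28). Kif22, a chromosome-bound kinesin, differed by -1.33 ± 0.32. None of the 24 h arrays reached the 0 h range in the probe sets used for these 3 genes. A dimmer probe set of Top2a gave -0.46, with overlapping groups. The 6 members whose groups overlapped were named after their values were seen. They were Spc25 (-0.97), Nusap1 (-0.95), Aurkb (-0.47, and -0.84 without 24 h replicate 2), Cenpe (-0.25), Cks2 (-0.23) and Mad2l1 (-0.01), and the sign of Cks2 and Mad2l1 turned in some alternatives. Without 24 h replicate 2, 34 of the 35 members lay below the 0 h arrays, against 9% of all genes.

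**Figure D1:**
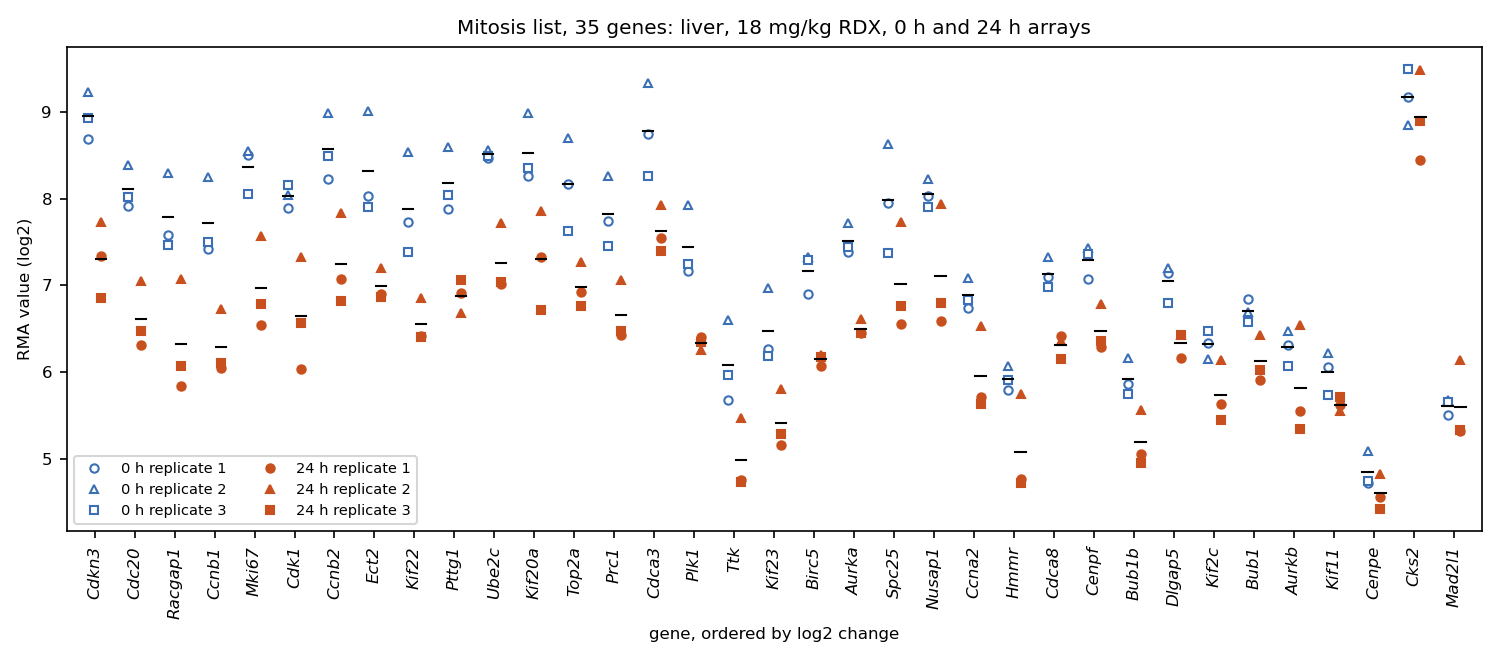
RMA values (log2) of the 35 measured mitosis genes, ordered by their log2 difference, in the 3 arrays at 0 h (open) and the 3 at 24 h (filled) after 18 mg/kg RDX. Marker shapes give the replicate and short black lines the group means. In 29 genes every 24 h array lies below every 0 h array, and 24 h replicate 2 is often the highest of its group.

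The earlier phases of the cell cycle differed less. Of 31 S phase and DNA replication genes, 21 lay below 0, with a median of -0.12, against 48.3% of all genes. At an unadjusted p under 0.05, 2 were lower, against 1.05% of genes. Tk1, thymidine kinase, read 8.92, 9.00 and 8.83 at 0 h and 7.99, 8.62 and 8.23 at 24 h (log2 -0.64 ± 0.28), the only member with all 24 h arrays below the 0 h arrays. Tyms, thymidylate synthase, differed by -0.67 ± 0.28 and its groups overlapped. Of 29 G1 cyclins, CDK inhibitors and p53 targets, 13 lay above and 16 below 0 (median -0.039). Cdkn1a, the CDK inhibitor p21, read 10.01, 10.25 and 9.83 at 0 h and 8.98, 9.08 and 9.06 at 24 h, 1.98-fold lower (log2 -0.99 ± 0.35). Its groups were well separated, and the arrays within each lay close together. A dimmer probe set of Cdkn1a gave -0.35, also without overlap. Phlda3, a p53 target that restrains AKT, differed by -0.89 ± 0.37, with 24 h replicate 2 at 6.77 against 8.33 and 8.43, and -0.35 without that array. Gadd45g, a stress gene picked after its values were seen, read 6.36, 6.51 and 9.11 at 24 h, so its -1.61 ± 0.93 rests on 2 arrays. Myc, the growth-promoting transcription factor, differed by -0.50 ± 0.53.

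Macrophage markers also lay lower at 24 h, though not against the pooled 0 h groups. Of 11 Kupffer cell and macrophage markers, 8 lay below 0 (median -0.22), against 48.3% of all genes. In 3 of the 11 all 24 h arrays lay below the 0 h arrays, against 4.2% of genes. No marker of this list reached an unadjusted p under 0.05. The summed level of the 11 markers ranged from 16957 to 20321 at 0 h and from 12291 to 16413 at 24 h on the linear scale. C1qa, a complement subunit made by macrophages, read 11.09, 10.94 and 11.03 at 0 h and 10.67, 8.03 and 10.82 at 24 h. Its difference was -1.18 ± 0.66 with all arrays and -0.27 without 24 h replicate 2. Cd5l, a secreted macrophage protein, differed by -0.33 ± 0.23, and its dimmer probe set gave 0.02 with overlapping groups. The list median was -0.080 with the actin gap as a covariate and 0.10 with both 0 h groups pooled. The part of these cells in the lower mitotic values was not tested. With the actin gap as a covariate the mitosis median was -1.08.

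The remaining marker lists lay near 0, with medians between -0.14 for stellate cells and fibroblasts and 0.097 for neutrophils. Of 15 markers of T, B and NK cells, 10 lay above 0. Ms4a1, the B cell antigen CD20, reached at most 5.34 at 0 h and read 5.41, 5.91 and 5.93 at 24 h (log2 0.60 ± 0.19), and Klrd1, an NK cell receptor, differed by 0.57 ± 0.31. Both probe sets were dim. The bile duct keratin Krt19 differed by -0.76 ± 0.40, and by -0.40 without 24 h replicate 2, with overlapping groups. Of 7 bile duct markers 5 lay below 0 (median -0.069), and Epcam differed by 0.20 ± 0.40. Markers of neuron, muscle, pancreas and kidney averaged between 4.89 and 5.77 in each of the 6 arrays.

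The same mitotic genes were followed through the other liver groups. After 18 mg/kg the list mean was 7.08, 6.72 and 7.13 at 4 h and 6.04, 5.49 and 5.82 at 48 h, so the order of group means was 0 h, 4 h, 24 h and 48 h from high to low. After 3 mg/kg it was 6.97, 7.16 and 7.92 at 0 h and 7.88, 8.01 and 7.71 at 24 h. All 3 high-dose arrays at 24 h were thus below all 3 low-dose arrays at 24 h. Set against 0 h, with the same 0 h arrays each time, the list median at 18 mg/kg was -0.41 at 4 h, -1.06 at 24 h and -1.81 at 48 h. At 3 mg/kg, against its own 0 h arrays, the median at 24 h was 0.44. From 0 to 48 h limma called 30 of 31042 probe sets (0.0966%). Counted by gene, 26 of 14217 fell (0.183%), 20 of them mitosis genes, among them Racgap1 (-2.40 ± 0.30, adjusted p = 0.000611) and Cdk1 (-2.52 ± 0.38, adjusted p = 0.00543). No alternative was run for the 48 h comparison with 0 h.

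**Figure D2:**
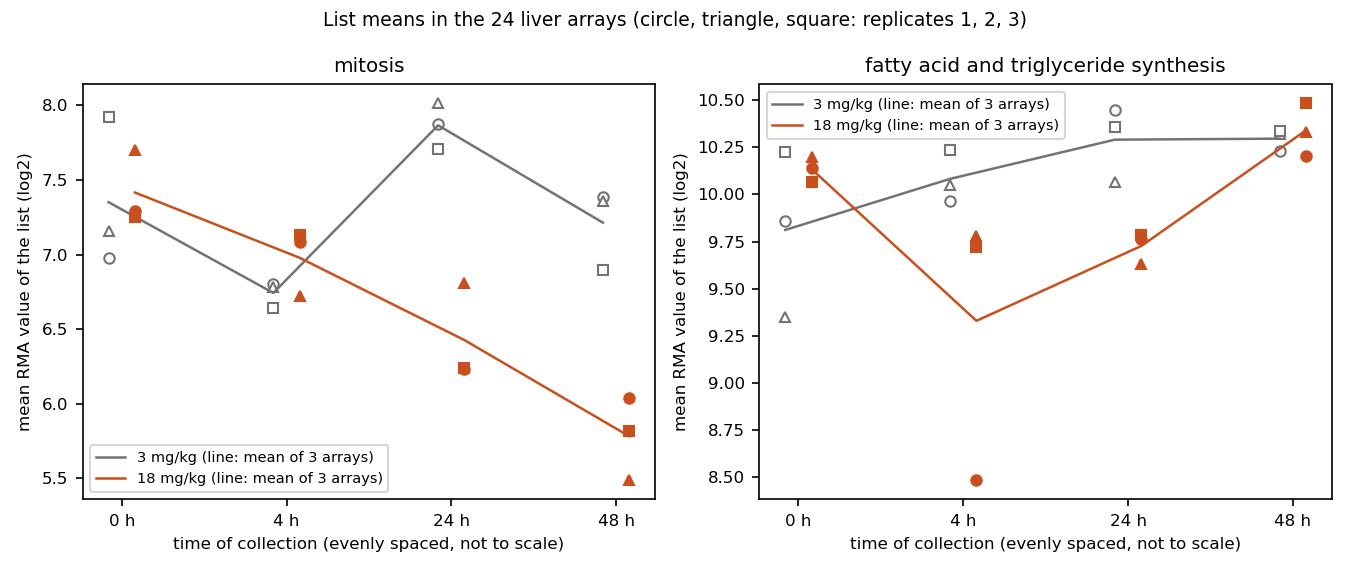
Mean log2 RMA value of the mitosis list (left, 35 genes) and of the fatty acid and triglyceride synthesis list (right, 24 genes) in each of the 24 liver arrays, by time and dose. Points are arrays and lines join group means. The mitosis mean in the 18 mg/kg arm goes from 7.42 at 0 h to 6.43 at 24 h and 5.78 at 48 h, while in the 3 mg/kg arm it is 7.87 at 24 h. The fat synthesis mean of the 18 mg/kg arm is 9.73 at 24 h and 10.34 at 48 h.

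Whether the 24 h difference itself differed between the doses was tested as an interaction. No probe set passed (limma, 0%). At an unadjusted p under 0.05 stood 2527 (8.14%), 1532 (4.94%) above and 995 (3.21%) below 0. Without 3 mg/kg 0 h replicate 3, 79 passed. The second Ccnb1 probe set came closest, with adjusted p = 0.142. Ube2c differed between the doses by -2.13 ± 0.40 and Cdk1 by -2.70 ± 0.54, both with adjusted p = 0.323. All 35 mitosis genes had a more negative difference at 18 than at 3 mg/kg, with a median of -1.38, and 29 did so at an unadjusted p under 0.05, against 4.82% of all genes. The 0 h groups of the 2 arms bear on this test. No probe set passed between them (limma, 0%), but 6658 (21.4%) had an unadjusted p under 0.05, and one low-dose 0 h array was compressed. Without 3 mg/kg 0 h replicate 3, 4123 passed. For the mitosis list the median difference between the 0 h groups was 0.050, with 15 of 35 below 0.

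Against 4 h after the same dose, the 24 h arrays had a mitosis median of -0.49, with 12 members lower at an unadjusted p under 0.05 against 2.72% of genes. From 24 to 48 h the median was -0.66, with 34 of 35 below 0 and 19 lower at that p, against 1.31%. Birc5 was the only member above 0 from 24 to 48 h, at -0.93 ± 0.21 from 4 to 24 h and 0.02 ± 0.21 from 24 to 48 h. No member passed in either comparison.

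Some clock genes were higher at 24 h and others were not. Of 9 repressors 3 lay above 0, all 3 with every 24 h array above every 0 h array, against 5.77% of all genes. Nr1d1, which makes REV-ERB alpha, read 5.16, 5.84 and 5.30 at 0 h and 8.07, 5.88 and 7.88 at 24 h, 3.58-fold higher (log2 1.84 ± 0.50). Replicate 2 at 24 h lay only just above the highest 0 h array, and without it the difference was 2.54. Nr1d2, which makes REV-ERB beta, read 7.81, 7.34 and 7.67 at 0 h and 9.75, 8.78 and 9.66 at 24 h (log2 1.79 ± 0.45). Its other probe sets gave 0.88 and, at the dimmest, -0.13. Per3, a period protein, read 5.88, 5.61 and 5.84 at 0 h and 6.95, 6.43 and 6.87 at 24 h (log2 0.97 ± 0.25), and a dimmer probe set gave 0.15. In all 3 genes replicate 2 was the lowest 24 h array.

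The other 6 repressors had values below 0. Per1 read 6.85, 6.96 and 7.04 at 0 h and 6.79, 6.68 and 6.75 at 24 h (log2 -0.21 ± 0.24), a small difference without overlap. Per2 read 8.75, 9.05 and 8.67 at 0 h and 7.80, 10.29 and 8.02 at 24 h, so that replicate 2 lay above and the other 2 arrays below the 0 h range. Its difference was -0.12 ± 0.60 with all arrays and -0.91 without that array. Per2, Cry1 (-0.28 ± 0.28, and -0.63 without that array) and Bhlhe40, a repressor of CLOCK targets (-0.74 ± 0.42), were named after their values were seen. Of 10 activators and outputs 7 lay above 0 (median 0.18). Clock, the histone acetyltransferase of the activator pair, read 9.32, 9.13 and 9.17 at 0 h and 9.57, 9.79 and 9.51 at 24 h (log2 0.41 ± 0.28), the only member of this list without overlap. Its other probe sets gave 0.25 and -0.02 with overlap, and 0.45 without. Its partner Bmal1 differed by 0.38 ± 0.58 and changed sign in some alternatives, and the output factors Dbp and Nfil3 by 0.30 ± 0.38 and -0.33 ± 0.24. Without 24 h replicate 2, Nfil3 was at -0.13 and the median of the list at -0.031.

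The 4 h and 48 h groups were read beside these values, and 4 h replicate 1 is the compressed array. Nr1d1 read 7.60, 9.19 and 8.97 at 4 h and 6.49, 5.90 and 5.39 at 48 h, so 24 h replicates 1 and 3 overlapped the 4 h range. Per3 read 7.60, 8.30 and 6.97 at 4 h and 5.94, 5.91 and 5.84 at 48 h, and every 24 h array lay between those groups. At 24 h after 3 mg/kg Nr1d1 read 6.91, 7.45 and 6.98, and Per3 5.78, 5.77 and 6.11. For Per3 all 3 high-dose arrays at 24 h thus lay above the low-dose arrays, and the interaction was 1.30 ± 0.36 (adjusted p = 0.507). In the comparison of 24 h with 4 h, limma called 1 of 31042 probe sets (0.00322%). It belonged to Sult2a6, a sulfotransferase of steroids and bile acids, which rose from 7.79, 8.08 and 9.12 at 4 h to 10.44, 10.42 and 10.70 at 24 h (log2 2.19 ± 0.32, adjusted p = 0.0252). At 0 h Sult2a6 read 9.83, 10.47 and 9.97, which overlapped the 24 h arrays. The count of calls fell to 0 without 24 h replicate 2 or 3, or 4 h replicate 1, and was 9 without 4 h replicate 2. An unadjusted p under 0.05 was reached by 2383 probe sets (7.68%).

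**Figure D3:**
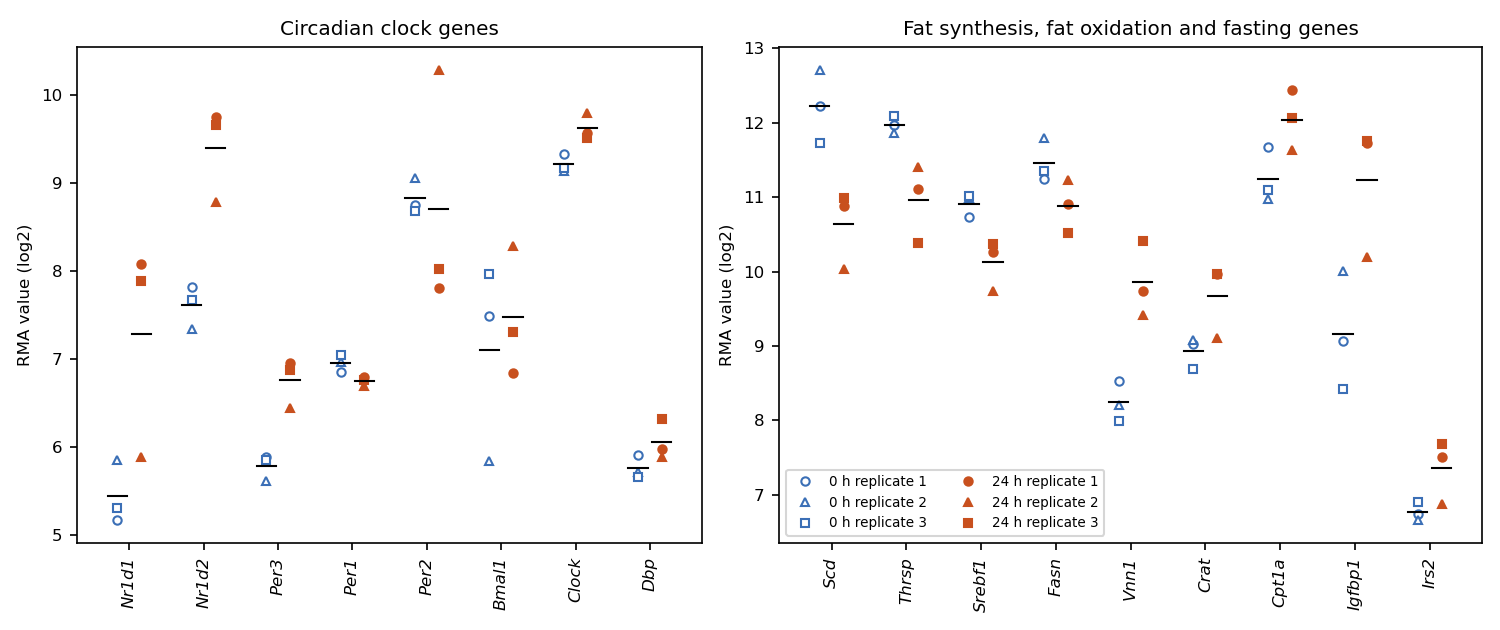
RMA values (log2) of 8 clock genes (left) and of 9 genes of fat synthesis, fat oxidation and fasting (right) in the 3 arrays at 0 h (open) and the 3 at 24 h (filled) after 18 mg/kg RDX. Marker shapes give the replicate and black lines the group means. Nr1d1, Nr1d2 and Per3 lie higher and Scd, Thrsp, Srebf1 and Fasn lower in all 3 arrays at 24 h, while Per2 and Igfbp1 have replicate 2 apart from the other 24 h arrays.

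Genes that make fatty acids had lower values. Of 24 members of the fatty acid and triglyceride synthesis list, 20 lay below 0, with a median of -0.35, against 48.3% of all genes. In 7 every 24 h array lay below every 0 h array, against 4.2% of genes. At an unadjusted p under 0.05, 2 of the 24 were lower, against 1.05% of genes. With the actin gap as a covariate the median was -0.19. Scd, the desaturase that makes monounsaturated fat, read 12.23, 12.71 and 11.73 at 0 h and 10.88, 10.03 and 10.99 at 24 h, 3.01-fold lower (log2 -1.59 ± 0.64). Fasn, fatty acid synthase, read 11.24, 11.79 and 11.35 at 0 h and 10.91, 11.23 and 10.51 at 24 h (log2 -0.57 ± 0.24). For Fasn the groups all but touched, at 11.23 and 11.24. Thrsp, a protein that promotes fat synthesis, read 11.97, 11.86 and 12.09 at 0 h and 11.11, 11.40 and 10.39 at 24 h, 2.01-fold lower with an SE of 0.53 on the log2 scale. Its other probe sets gave -2.29 and -1.93. Srebf1, which encodes SREBP-1c, read 10.73, 10.99 and 11.02 at 0 h and 10.27, 9.73 and 10.37 at 24 h (log2 -0.79 ± 0.42). Acaca, the first enzyme of the path, differed by -0.39 ± 0.24 and Acacb, its mitochondrial form, by -0.30 ± 0.23. A dim second probe set of Acaca gave 0.06. Thrsp, Srebf1, Acaca and Acacb were named after their values were seen.

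The list was also read at 4 h and 48 h. Against 0 h the list median was -0.85 at 4 h, with 22 of 24 below 0, and from 4 to 24 h it was 0.41, with 5 of 24 below 0. One of the 4 h arrays is compressed. From 24 to 48 h the median was 0.45, again with 5 of 24 below 0. At 48 h Fasn was at 11.96, 11.99 and 12.44, and its difference from 24 h was 1.24 ± 0.24 (adjusted p = 0.353). Pnpla3, a triglyceride hydrolase of the lipid droplet, read 5.82, 6.47 and 5.41 at 24 h and 7.69, 8.32 and 8.11 at 48 h (log2 2.14 ± 0.43, adjusted p = 0.353). No probe set passed from 24 to 48 h (limma, 0%), with 575 (1.85%) at an unadjusted p under 0.05. Without 48 h replicate 1, 2 passed. Of the 24 list members 9 were higher at 48 h at that p, against 0.619% of genes. At 24 h after 3 mg/kg the list mean was 10.45, 10.07 and 10.36, above the 9.76, 9.63 and 9.79 after 18 mg/kg. The interaction was negative in 22 of 24 members (median -1.03), against 54.6% of all genes. At an unadjusted p under 0.05 it was negative in 9 members, against 4.82% of genes.

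Genes of fat oxidation more often had values above 0. Of 34 PPAR alpha targets and fat oxidation genes, 22 lay above 0 (median 0.17), against 51.7% of all genes. In 10 every 24 h array lay above every 0 h array, against 5.77% of genes. At an unadjusted p under 0.05, 3 were higher, against 1.41% of genes. The median was 0.37 with the actin gap as a covariate and 0.52 with both 0 h groups pooled. At 24 h after 3 mg/kg, against its own 0 h arrays, the median was 0.41, with 9 of 34 below 0. One of those 0 h arrays is compressed. Vnn1, a pantetheinase induced by PPAR alpha, read 8.53, 8.21 and 7.99 at 0 h and 9.74, 9.42 and 10.41 at 24 h, 3.06-fold higher (log2 1.62 ± 0.43). Crat, carnitine acetyltransferase, read 9.02, 9.08 and 8.69 at 0 h and 9.97, 9.10 and 9.96 at 24 h (log2 0.74 ± 0.28), with replicate 2 near the 0 h range. Cpt1a, the carnitine transferase that admits fatty acids to mitochondria, differed by 0.79 ± 0.36, and its groups overlapped. Eci1 and Acot2, mitochondrial enzymes of fat breakdown, differed by 0.98 ± 0.55 and 0.86 ± 0.45, Acot12, an acetyl-CoA hydrolase, by 0.72 ± 0.36, and the fatty acid hydroxylase Cyp4a1 by 0.46 ± 0.23. Dimmer probe sets gave 0.12 for Eci1 and 0.26 and 0.09 for Acot2, all with overlap. All but Vnn1 and Crat among these were named after their values were seen. Without 24 h replicate 2, 16 of the 34 lay above all 0 h arrays and 2 below, against 11.8% and 9% of all genes.

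Fasting genes varied with the array. Of 16 gluconeogenesis and fasting genes 12 lay above 0 (median 0.13, and -0.035 without 24 h replicate 1). At an unadjusted p under 0.05, 2 were higher, against 1.41% of all genes. Igfbp1, a liver IGF-binding protein that insulin represses, read 9.06, 10.01 and 8.42 at 0 h and 11.72, 10.19 and 11.76 at 24 h, 4.17-fold higher (log2 2.06 ± 0.77). The replicate 2 arrays of the groups nearly met, and without 24 h replicate 2 the difference was 2.58. Irs2, an insulin receptor substrate, read 6.75, 6.66 and 6.90 at 0 h and 7.51, 6.88 and 7.69 at 24 h (log2 0.59 ± 0.27). Pck1, which commits carbon to glucose synthesis, differed by 0.31 ± 0.25. Among 23 genes of the growth hormone and IGF axis 14 lay above 0 (median 0.094). Stat5a, a transducer of growth hormone, read 7.77, 7.45 and 7.47 at 0 h and 7.07, 7.05 and 7.06 at 24 h (log2 -0.51 ± 0.22). Cish, a feedback inhibitor of that signal picked after its values were seen, read 9.03, 8.21 and 9.54 at 0 h and 6.85, 6.23 and 9.25 at 24 h (log2 -1.48 ± 0.74), with replicate 3 inside the 0 h range and -0.87 without replicate 2. A dimmer probe set of Cish gave -0.12, with overlapping groups. Igfbp2, also picked after its values were seen, had a high replicate 3 at 9.01 against 7.33 and 6.78 (log2 0.96 ± 0.49).

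Some drug metabolism genes were higher at 24 h. Of 19 targets of the receptors CAR and PXR, 13 lay above 0 (median 0.11), and 3 were higher at an unadjusted p under 0.05, against 1.41% of genes. That median ranged from 0.026 without 0 h replicate 2 to 0.62 with both 0 h groups pooled. At 24 h after 3 mg/kg, against its own 0 h arrays, the median was 0.67, with 1 of 19 below 0. One of those 0 h arrays is compressed. Abcb1a, the efflux pump P-glycoprotein, read 7.59, 6.73 and 6.63 at 0 h and 7.77, 8.39 and 7.90 at 24 h, 2.06-fold higher (log2 1.04 ± 0.29). Cyp2c12 differed by 1.04 ± 0.45 and the glucuronosyltransferase Ugt2b1 by 0.88 ± 0.42, both with overlapping groups and both of families whose probe sets can cross-react. Of 24 other CYP enzymes 6 had every 24 h array above the 0 h arrays, against 5.77% of genes, and 3 were higher at an unadjusted p under 0.05, against 1.41%. The median of these 24 was 0.040, and 0.48 at 24 h after 3 mg/kg against its own 0 h arrays. Cyp17a1, a steroid hydroxylase, read 7.12, 6.60 and 7.68 at 0 h and 8.16, 7.85 and 8.95 at 24 h (log2 1.19 ± 0.41). Cyp4a8, a fatty acid hydroxylase, read 6.12, 5.36 and 5.45 at 0 h and 6.95, 7.71 and 6.29 at 24 h (log2 1.34 ± 0.49). A dimmer probe set of Cyp4a8 gave 0.32, with overlapping groups.

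Other arms of the drug response had values near 0. Targets of the aryl hydrocarbon receptor, 9 in all, had a median of -0.11, and Cyp1a1, its best known target, differed by 0.26 ± 0.25. Conjugation enzymes had a median of 0.018 over 30 genes, with the glutathione transferase Gstt2 at 0.38 ± 0.19, and at 0.22 without 24 h replicate 2. Of 25 membrane transporters 14 lay above 0. Slc22a5, the carnitine importer, read 8.33, 8.64 and 7.62 at 0 h and 9.01, 8.96 and 9.17 at 24 h (log2 0.85 ± 0.27), and its 24 h arrays all lay above the 0 h range.

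Sterol and bile acid genes overlapped in most cases. Cholesterol synthesis genes had 12 of 21 members below 0 (median -0.089). Hsd17b7, a sterol reductase of that path, read 9.46, 9.22 and 9.71 at 0 h and 10.03, 10.54 and 9.72 at 24 h (log2 0.64 ± 0.26). Mvd, an earlier enzyme, differed by -0.67 ± 0.44. Without 24 h replicate 2 the values were 0.42 for Hsd17b7 and -0.21 for Mvd. Of 17 bile acid genes 15 lay above 0, with a median of 0.081. The 2 below 0 were Cyp7a1, the rate-limiting enzyme of bile acid synthesis (-0.57 ± 0.39), and Cyp7b1 of the alternative path (-0.51 ± 0.28, and -0.80 without 24 h replicate 2). Nr0b2, the SHP repressor of Cyp7a1, read 8.24, 9.57 and 8.52 at 0 h and 10.78, 8.91 and 9.70 at 24 h (log2 1.02 ± 0.53). Bhmt, which remethylates homocysteine, read 11.23, 9.96 and 11.39 at 0 h and 9.54, 8.19 and 9.68 at 24 h, 3.31-fold lower (log2 -1.73 ± 0.84). It led the list of urea cycle and amino acid breakdown, whose 36 genes had a median of -0.13.

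Stress genes had list medians near 0, except for oxidative stress enzymes. Of 18 such enzymes 13 lay below 0 (median -0.18), against 48.3% of all genes. That median was 0.13 with both 0 h groups pooled. Of 29 immediate early genes 22 lay below 0 (median -0.18). The NRF2 targets had a median of -0.039 over 22 genes, with Akr1b8, an aldo-keto reductase, at 0.70 ± 0.31 and Pgd of the pentose phosphate path at -0.76 ± 0.36. Pgd was at -0.43 without 24 h replicate 2. Hmox1, heme oxygenase, read 9.33, 8.84 and 9.44 at 0 h and 8.12, 8.76 and 8.72 at 24 h (log2 -0.67 ± 0.33), and the metallothionein Mt1 differed by -0.68 ± 0.44. Heat shock proteins had a median of -0.040, with Hspa1a, inducible HSP70, at -0.34 ± 0.21 and the small chaperone Cryab at -0.41 ± 0.26. The unfolded protein and ATF4 list had 22 of 31 members below 0 (median -0.072), from Calr, a chaperone of the endoplasmic reticulum, at -0.72 to Chac1, a glutathione-degrading ATF4 target, at 0.50. Calr was at -0.32 and Chac1 at 0.81 without 24 h replicate 2.

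Secreted and immune genes lay near the all-gene median. Acute phase proteins had a median of -0.020 over 24 genes. A2m, alpha-2-macroglobulin, an acute phase protein of rat liver, differed by 0.58 ± 0.46, the lipopolysaccharide-binding protein Lbp by 0.63 ± 0.47 and Lcn2, lipocalin 2, by -0.64 ± 0.31. A2m was at 0.33 and Lbp at 1.05 without 24 h replicate 2. Interferon-induced genes had a median of 0.071, with Psmb9, an immunoproteasome subunit, at 10.55, 9.67 and 10.57 in the 24 h arrays against 11.04 to 11.21 at 0 h, a difference of -0.86 with all arrays and -0.56 without 24 h replicate 2. Nfkbiz, a regulator of NF-kB, read 7.79, 8.14 and 8.30 at 0 h and 8.64, 8.46 and 8.55 at 24 h (log2 0.48 ± 0.25). A dimmer probe set of Nfkbiz gave 0.01, with overlapping groups. Ribosomal protein, oxidative phosphorylation and proteasome genes had medians of -0.078, -0.045 and -0.030. Medians this small had no stable sign: 40 of the 48 lists, pathway and marker lists together, changed sign in some alternative.

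Some low values came from a single array. Khk, the liver fructokinase, chosen after its values were seen, read 11.28, 8.39 and 11.07 at 24 h and 11.43, 11.45 and 11.16 at 0 h, and its difference was -1.10 ± 0.69 with all arrays and -0.17 without 24 h replicate 2.

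**Figure D4:**
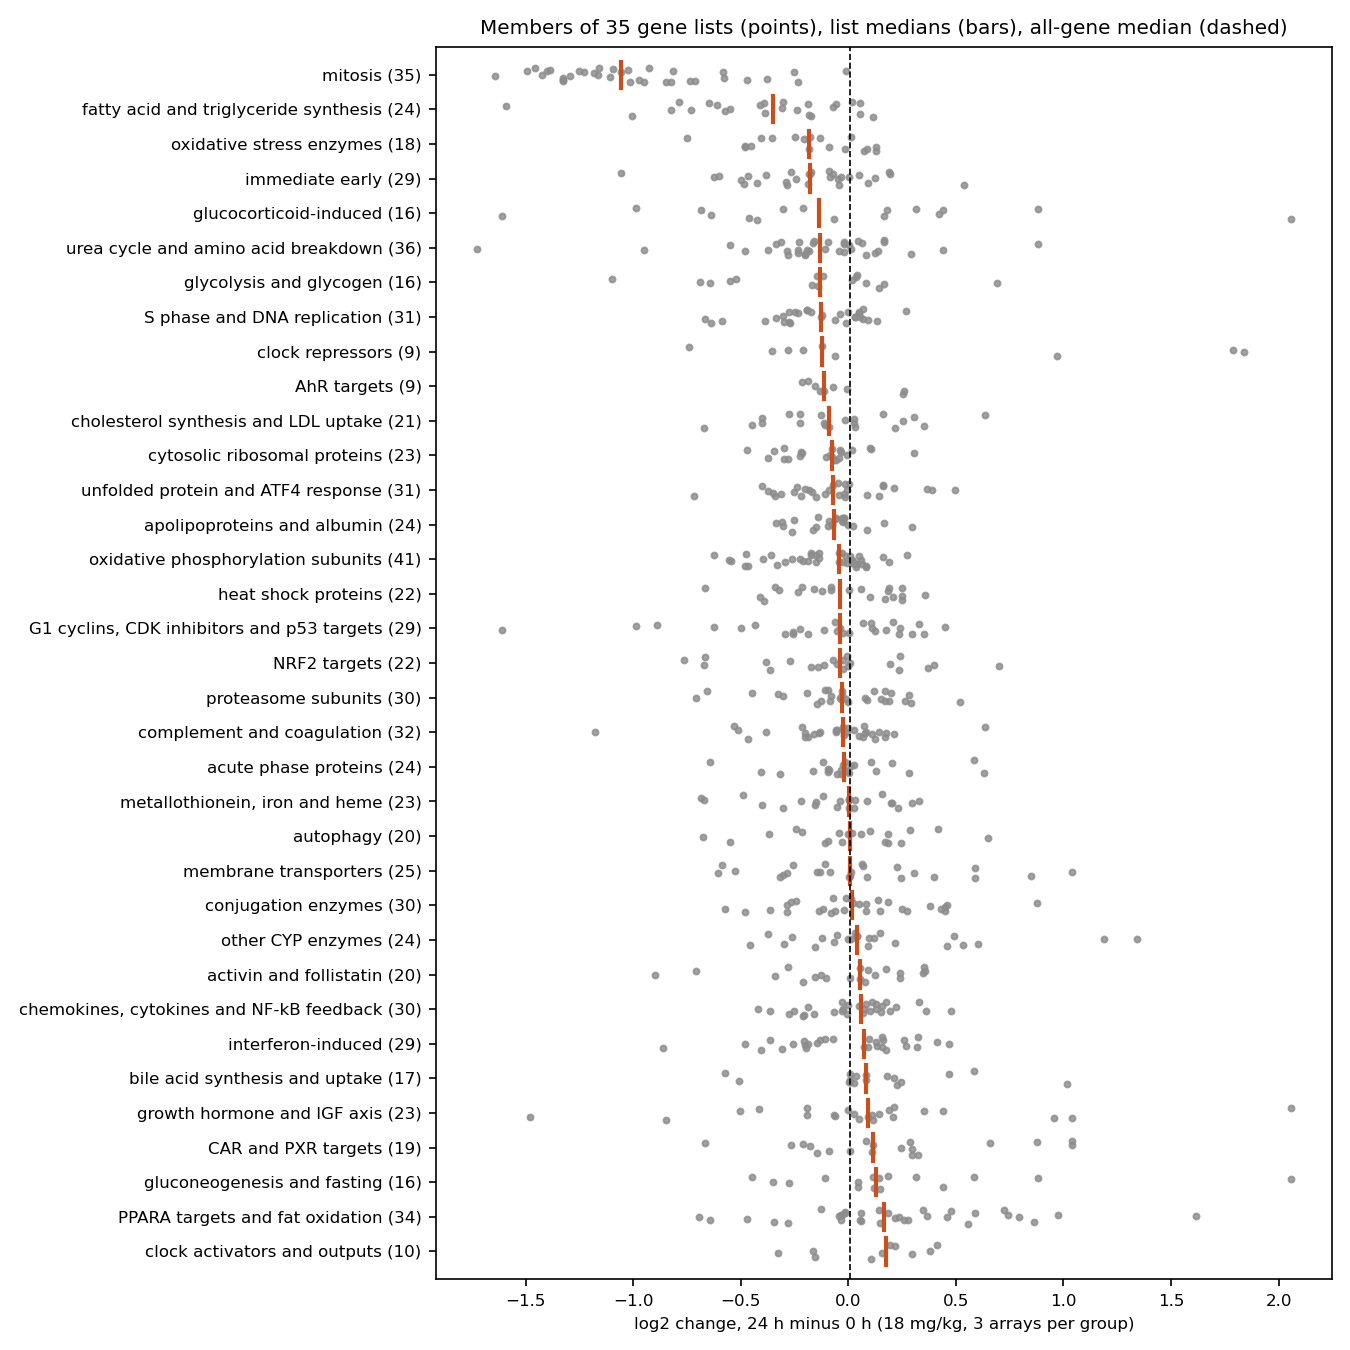
Log2 differences between 24 h and 0 h (18 mg/kg, 3 arrays per group) of the members of 35 gene lists, with the number measured in parentheses. Points are genes, bars are list medians and the dashed line is the median of 14217 genes. The mitosis median of -1.06 stands lowest, fatty acid synthesis follows at -0.35, and the other 33 medians lie between -0.18 and 0.18.

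Outside the lists, 5 genes were among the 10 with the smallest p in the higher direction. Cemip2, a membrane hyaluronidase, read 6.01, 5.88 and 5.68 at 0 h and 7.01, 7.65 and 7.16 at 24 h, 2.67-fold higher (log2 1.42 ± 0.36). It stayed at 7.02, 7.35 and 7.61 at 48 h and had been at 5.24, 5.01 and 5.64 at 4 h. Meox2, a homeobox factor, read 6.78, 5.63 and 6.40 at 0 h and 7.26, 7.82 and 8.09 at 24 h (log2 1.45 ± 0.41). Mtmr1, a phosphoinositide phosphatase, read 6.71, 5.92 and 6.72 at 0 h and 7.52, 7.56 and 7.33 at 24 h (log2 1.02 ± 0.27). Ahcyl2, an AHCY-like protein, differed by 0.71 ± 0.17, and Esm1, an endothelial secreted proteoglycan, by 0.92 ± 0.22 at dim levels of 4.13 to 5.32. None of the 5 had overlapping groups in the probe set used, and adjusted p was 0.934 for Esm1 and Ahcyl2. A dimmer probe set of Ahcyl2 gave -0.03 with overlap. Dimmer probe sets of Mtmr1 gave 0.47 without overlap, and -0.07 and -0.23 with overlap.

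Weighting the arrays by their agreement altered how many probe sets passed. With limma's array quality weights, where 24 h replicate 2 had weight 0.422 and 0 h replicate 2 had 0.503, 98 of 31042 probe sets passed, 46 higher and 52 lower. They included 17 of the 35 genes of the mitosis list, Racgap1 and Ube2c with adjusted p = 0.000955 among them, and Nr1d1 (0.000955), Nr1d2 (0.00659), Per3 (0.0496), Scd (0.0287) and Igfbp1 (0.0194). The iteration that sets the weights stopped before it converged. The same weights passed 11915 probe sets between the 0 h groups of the 2 arms and 5738 for the dose difference. Without weights both counts were 0 in the main fit, though not in every unweighted alternative. A pass under weights is thus weak evidence here. With both 0 h groups pooled as control, 3 probe sets passed, all lower, with the second Ccnb1 probe set and Birc5 (adjusted p = 0.0432 for both) among them.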

How the data were processed

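Affymetrix rat genome arrays measured liver RNA. The authors deposited log2 values, which the submitters' processing notes tie to RMA and Partek without versions or settings. RMA sets the probe intensities of the arrays to one distribution, which shrinks any shift that affects most genes. The deposited probe set values were not on one distribution, with SDs from 1.38 to 2.08 over the liver arrays. The values were used without further scaling. After 57 control probe sets were left out, 31042 were tested. The platform annotation gave 20826 a single symbol, 436 several and 9780 none.

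One model with a mean for each of the 8 liver groups (24 arrays, 16 residual df) was fitted with lmFit and eBayes in limma 3.58.1 (R 4.3.3). It gave 5 two-sided contrasts, each adjusted by Benjamini-Hochberg over all probe sets at 0.05. The code was tested on simulated data. The number of arrays limits the precision.

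Gene lists (35 pathway, 13 marker) and members were chosen with earlier results of these data known. Genes were named by rule: up to 15 largest passing differences each way or, failing that, the 10 smallest p, the 2 smallest p of each list, 20 fixed genes (17 measured), and the smallest p of the other contrasts. The text prints only some of them. Replicate numbers were not used to pair the groups. Deviations of same-numbered arrays correlated at -0.15, -0.20 and -0.0032, and those of differently numbered arrays from -0.29 to 0.35. With 3 arrays a group, these values cannot exclude a shared batch. Differences at 4 h, 48 h and 3 mg/kg from 0 h came from the same fit. Alternatives changed one choice at a time, and counts of separated members without a 24 h array were added after seeing the data.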

Additional observations from a re-analysis of the deposited data

How the results depend on the processing

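Mitosis genes kept a median log2 difference between -0.87 and -1.25 in all alternatives run. The fatty acid synthesis median ranged from -0.39 to -0.19 (the latter with the actin gap) and the PPAR alpha median from 0.12 to 0.52 (0.37 with the actin gap, 0.52 with pooled 0 h groups). Of the 48 lists, 40 had a median that changed sign in some alternative. The main comparison of 24 h with 0 h gave 0 calls in every alternative but array quality weights (98) and pooled 0 h groups (3). This includes the replicate block (0) and each left-out array (0 to 0). Against 4 h, the 1 call became 0 with only the compared arrays, quantile normalization, the compressed arrays left out or the actin gap as covariate, 2 with 1 probe set per gene, median centring or the replicate block, and 166 with weights. Leaving out single arrays gave 0 to 9, with 9 without 18 mg/kg 4 h replicate 2. From 24 to 48 h, weights gave 46 calls, trended robust moderation 1, leaving out the compressed arrays 9, and single arrays 0 to 2, with 2 without 48 h replicate 1. For the dose difference, weights gave 5738, the actin gap 5 and single arrays 0 to 79, with 79 without 3 mg/kg 0 h replicate 3. Between the 0 h groups, quantile normalization gave 1, weights 11915, the actin gap 8659 and single arrays 0 to 4123, with 4123 without that same array. The causes were not tested. Signs turned for 4 genes with small values. Bmal1 was at -0.21 with weights and from -0.25 to 0.81 without single arrays. Per2 was at 0.22 with pooled 0 h groups and from -0.91 to 0.33 without single arrays. Cks2 was at 0.10 with pooled 0 h groups and from -0.50 to 0.016 without single arrays. Mad2l1 was at 0.0068 with quantile normalization and from -0.28 to 0.13 without single arrays.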
